A study of Mus musculus with 24 samples.

Results

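Hearts of mice carrying an extra adenylyl cyclase were compared with hearts of non-transgenic mice. The comparison uses 12 of the 24 arrays of the series, the 6 titled AC5 replicate 1 to 6 and the 6 titled NTG replicate 1 to 6, chosen by their titles alone. In AC5 mice a human AC5 cDNA, which encodes type 5 adenylyl cyclase, was placed under the alpha-myosin heavy chain promoter, so that it was made in cardiac myocytes. NTG mice carried no transgene. All mice were 90 days old, each genotype had 6 biological replicates, and total heart RNA was measured on Affymetrix arrays. Neither the number of founder lines nor the sex of the animals is given in the sources used here. The arrays of 2 further lines, which carry the Gly389 (GLY) or the Arg389 (ARG) form of the human beta1-adrenergic receptor under the same promoter, are used only where a change is set beside theirs.

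Adenylyl cyclase makes cyclic AMP when stimulatory G protein is activated by receptors such as the beta-adrenergic ones, and cyclic AMP acts mainly through protein kinase A. In the heart this pathway raises the rate and force of contraction, and it can reach the nucleus through the transcription factor CREB. A separate programme, the amino acid or integrated stress response, acts through the transcription factor ATF4, which raises genes for asparagine and serine synthesis, mitochondrial folate metabolism and amino acid uptake. Adult heart muscle draws most of its energy from the oxidation of fatty acids, with branched-chain amino acids as a minor fuel.

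The largest rises in AC5 hearts were in genes of the ATF4 programme, so the promoter stretches that hold a short ATF4-type sequence are shown first. Sites bound by ATF4 with a C/EBP partner often contain the letters TGATGNAA. The letters were searched on both strands in the RefSeq promoters of GRCm38.p6, which run from 250 bases before to 50 bases after each start site. Promoter sequences were given for 18 of the 22 measured genes of the serine, asparagine and ATF4 target list, and 6 of the 18 held a match, against 3.24% of the promoters of 14452 measured genes. The letters were held by 3 of the 45 risen genes with a promoter (6.67%) and 4 of the 134 fallen ones (2.99%). The list names ATF4 targets, so its share may follow from how it was made and is not a result about AC5 hearts. This search was chosen after the expression values had been seen. The stretches below lie upstream of the start site, are written 5′ to 3′ on the strand of the gene, and carry the match in capitals, in either orientation.
Asns, chr6:7693210-7693459, minus strand: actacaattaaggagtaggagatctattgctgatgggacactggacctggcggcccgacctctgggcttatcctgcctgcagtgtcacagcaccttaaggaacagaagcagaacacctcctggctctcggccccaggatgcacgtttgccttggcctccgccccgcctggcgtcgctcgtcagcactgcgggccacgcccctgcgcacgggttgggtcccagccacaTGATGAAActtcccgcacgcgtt
Chac1, chr2:119350992-119351241, plus strand: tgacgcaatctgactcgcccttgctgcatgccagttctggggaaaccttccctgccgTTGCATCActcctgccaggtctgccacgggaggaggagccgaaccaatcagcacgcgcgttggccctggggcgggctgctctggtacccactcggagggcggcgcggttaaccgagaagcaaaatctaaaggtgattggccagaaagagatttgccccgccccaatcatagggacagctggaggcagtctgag
Fgf21, chr7:45615596-45615655, minus strand: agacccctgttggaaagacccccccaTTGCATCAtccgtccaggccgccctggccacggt
Slc7a11, chr3:50443627-50443705, minus strand: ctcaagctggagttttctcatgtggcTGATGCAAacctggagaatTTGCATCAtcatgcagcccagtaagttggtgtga
Nupr1, chr7:126625547-126625606, minus strand: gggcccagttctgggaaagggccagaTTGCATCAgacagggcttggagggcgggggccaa
Vldlr, chr19:27216794-27216853, plus strand: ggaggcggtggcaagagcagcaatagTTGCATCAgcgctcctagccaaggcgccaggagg
The match began 23 bases before the start site in Asns and 193 bases before it in Chac1, and both of these genes rose in AC5 hearts. The other 4 genes shown did not pass the test. Mthfd2, Phgdh and Aldh18a1 rose and held no match in this window, and no promoter was given for Slc7a5. A match is a description of the letters and not a binding site.

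The deposited values are linear ratios that lie near 1 in NTG hearts, and their differences are given as log2 ± SE of the mean difference (n = 6 hearts per group). Each probe set was tested with limma, a probe set was called at a Benjamini-Hochberg adjusted p under 0.05, and "rose" and "fell" are used of called probe sets alone. Because a ratio holds no signal level, markers of heart muscle could not be checked as levels, and how bright each probe set was is unknown. Gene lists are counted at 1 probe set a gene, chosen without its values, and calls at other probe sets of a member are named after their values were seen. In whole hearts, fewer cells of a type and less RNA per cell cannot be told apart.

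Mouse Adcy5, the gene that matches the human transgene, was measured by 4 probe sets. At 1439829_at the ratio ran from 0.934 to 1.10 with a median of 0.992 in NTG hearts, and from 1.24 to 1.46 with a median of 1.32 in AC5 hearts. The groups did not overlap, and the probe set rose by 0.41 ± 0.07 (limma, adjusted p = 0.00761). The other 3 Adcy5 probe sets differed by -0.13 to 0.14 and did not pass. The probe sets were designed on the mouse gene, and how far any of them reads the human transcript was not tested. In a fit of all 24 arrays the difference from NTG at 1439829_at did not pass (adjusted p = 0.0813). In that fit AC5 exceeded GLY hearts by 0.54 ± 0.09 (adjusted p = 0.00444), and ARG hearts by 0.37 ± 0.09 (limma, adjusted p = 0.0199). Adcy6, the other main cyclase of heart muscle, differed by -0.09 ± 0.10. The endogenous Myh6 gene, whose promoter drives the transgene, differed by 0.01 ± 0.06 at 1448826_at and by -0.15 ± 0.16 at 1417729_at.

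Across the 45037 probe sets tested, 299 were called (0.664%). Of these, 99 rose (0.22% of those tested) and 200 fell (0.444%), which stood for 54 and 164 named genes. The 6 AC5 values lay wholly outside the 6 NTG values at 78 of the rises and 140 of the falls, and such separation was seen at 1.22% of all probe sets. Rises were fewer and larger. A change of at least 2-fold was found at 16 rises, while no called fall reached 2-fold. The largest rise was 3.69 and the largest fall was -0.99, at the Ndufab1 probe set 1435934_at, which is named here after its value was seen, whose groups overlapped and whose gene did not pass at the other 4 probe sets. At an unadjusted p under 0.05, 12.6% of probe sets were found.

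How many probe sets were called depended on which hearts entered. Taken alone, replicates 1 to 3 gave 103 calls (0.229%), and replicates 4 to 6 gave 0 by limma, with 2432 probe sets (5.4%) at an unadjusted p under 0.05. Of the 103 called in replicates 1 to 3 alone, 99 differed in the same direction in replicates 4 to 6. A test of whether the AC5 effect differed between the sets called 0 probe sets by limma, with 1866 (4.14%) at an unadjusted p under 0.05. After quantile normalization 98 were called, 45 up and 53 down, all of them among the 299. Leaving out 1 heart gave 105 calls without AC5 replicate 2 and 478 without AC5 replicate 4. The count moved by over 1.5 times also without AC5 replicate 3 (152) or 6 (159), or without NTG replicate 1 (134), 2 (133), 3 (152) or 6 (159).

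The 4 largest rises were at probe sets of Asns, Mthfd2 and Phgdh, which belong to the amino acid response. Of the 22 measured genes on the serine, asparagine and ATF4 target list, each read at 1 probe set chosen without its values, 5 rose and none fell. Over all genes read in that way, 0.181% rose. The list median was 0.23, with 16 of the 22 above 0, beside a median of -0.01 over all genes. Leaving out single hearts gave 4 to 8 rises on the list, 8 of them without AC5 replicate 4, and an outlier-robust variance estimate gave 3. The list was made with earlier results of these arrays known.

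Asns, which encodes asparagine synthetase, showed the largest change. At 1433966_x_at the ratio ran from 0.856 to 1.24 with a median of 0.978 in NTG hearts, and from 3.87 to 24.03 with a median of 14.2 in AC5 hearts. Every AC5 heart stood above the highest control, with the lowest value in replicate 4 and the highest in replicate 5. The difference was 3.69 ± 0.29, a 12.9-fold rise (adjusted p = 1.36e-05), and 2.34 after quantile normalization (adjusted p = 2.46e-08). The second Asns probe set, 1451095_at, rose by 2.92 ± 0.26, and by 1.89 after quantile normalization. The first is of a type that can also bind related transcripts, and the second is not.

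Mthfd2, a mitochondrial folate enzyme that passes on carbon units derived from serine, had a ratio of 0.858 to 1.20 in NTG hearts and of 3.32 to 20.0, median 9.14, in AC5 hearts at 1419254_at. The groups did not overlap, and AC5 replicate 4 was again lowest. The rise was 3.11 ± 0.27 (adjusted p = 1.55e-05), 1.96 after quantile normalization, and 1.57 ± 0.19 at the second probe set.

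Phgdh catalyses the first step of serine synthesis. At 1437621_x_at its ratio was 0.818 to 1.15 in NTG hearts and 1.91 to 7.33, median 6.27, in AC5 hearts, and the groups did not overlap. It rose by 2.33 ± 0.24 (adjusted p = 9.92e-05), or by 1.47 after quantile normalization. All 4 Phgdh probe sets rose, by 0.67 to 2.33. They are of the type that can also bind related transcripts, so part of their signal may belong to near-identical copies of the gene. Psat1, the next enzyme of the serine pathway, had ratios of 0.816 to 2.39 in AC5 and 0.778 to 1.43 in NTG hearts, overlapped and did not pass (0.60 ± 0.21, adjusted p = 0.203). Psph, the last enzyme, differed by 0.03 ± 0.09.

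Slc7a5, the light chain of the large neutral amino acid transporter, had ratios of 0.652 to 1.26 in NTG and 1.55 to 5.30, median 2.20, in AC5 hearts. It rose by 1.33 ± 0.24 (adjusted p = 0.014). Its partner chain Slc3a2 differed by 0.39 ± 0.15 and did not pass. Aldh18a1, which starts proline synthesis from glutamate, rose by 1.30 ± 0.18 at 1437325_x_at, with NTG ratios of 0.784 to 1.10 and AC5 ratios of 1.22 to 3.38, and 4 of its 5 probe sets rose. These 4 are of the type that can also bind related transcripts. The probe set that stood for Aldh18a1 in the list count, 1415836_at, is not of that type and was the one that did not rise (0.54 ± 0.13, adjusted p = 0.0623).

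Chac1, an enzyme that breaks down glutathione, rose by 0.81 ± 0.17 (adjusted p = 0.0344), with NTG ratios of 0.805 to 1.25 and AC5 ratios of 1.38 to 3.07. The groups did not overlap, but the call was lost after quantile normalization (adjusted p = 0.064) and without NTG replicate 1, 3, 4 or 5 or AC5 replicate 2, 3 or 6. Fgf21, a hormone released under amino acid stress, also stood clear of the controls, at 1.18 to 3.00 against 0.836 to 1.09, and did not pass (0.65 ± 0.17, adjusted p = 0.0939). Atf5, a transcription factor related to ATF4 and named here after its value was seen, rose by 1.39 ± 0.28 (adjusted p = 0.027) with overlapping groups, and lost its call without NTG replicate 1, 2, 3 or 5 or AC5 replicate 2 or 6. Stc2, named in the same way, fell by 0.49 ± 0.11 at 1449484_at (adjusted p = 0.041) without overlap. Its other probe sets differed by -0.10 and 0.03 and did not pass. The Stc2 call was lost after quantile normalization (adjusted p = 0.11) and was kept only without AC5 replicate 4 or 6. The transcript of Atf4 itself differed by 0.16 ± 0.08 and did not pass, and that of Ddit3 by 0.05 ± 0.10. Trib3, a pseudokinase raised by ATF4, differed by 0.50 ± 0.16 (adjusted p = 0.18).

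**Figure D1:**
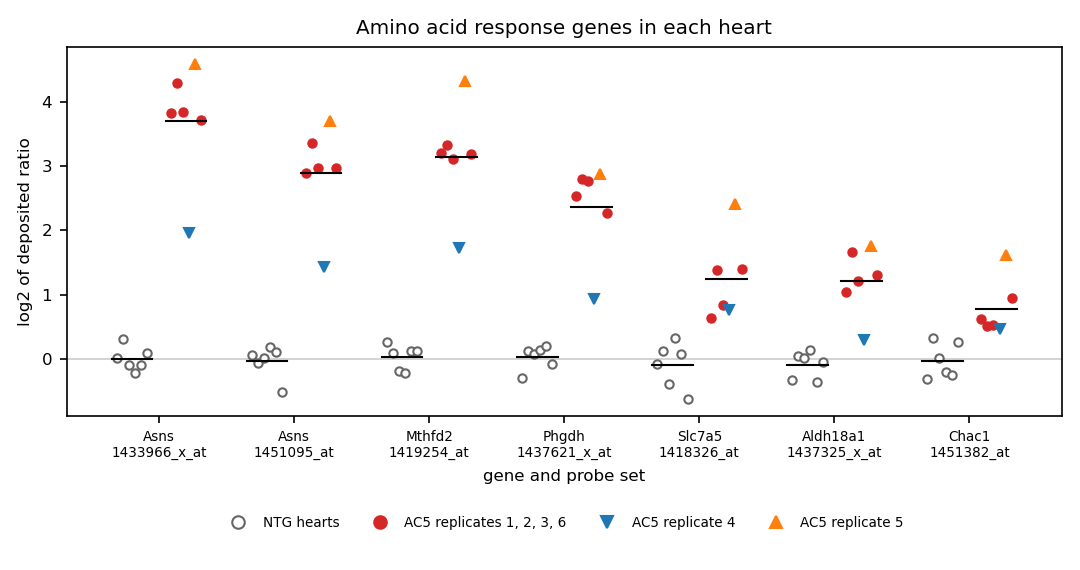
Log2 of the deposited ratio (y axis) in each NTG heart (open circles) and each AC5 heart (filled) at the probe sets of 6 amino acid response genes; bars are group means of 6 hearts. At each probe set all 6 AC5 hearts lie above all 6 NTG hearts, and replicate 4 (downward triangle) lies lowest of the AC5 hearts at all of them but Slc7a5.

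Enzymes that charge transfer RNAs, often raised with the ATF4 programme, gave 0 calls among 18 at the probe sets chosen, by limma with Benjamini-Hochberg adjustment, with 7 higher at an unadjusted p under 0.05. The median was 0.10, with 13 of 18 above 0. Gars was nearest, at 0.57 ± 0.13 (adjusted p = 0.0517), followed by Sars at 0.52 ± 0.12 (adjusted p = 0.0528) and Iars at 0.52 ± 0.12 (adjusted p = 0.0626). Other probe sets of 3 of these genes were called and are named after their values were seen. They were Sars 1452000_s_at at 0.57 ± 0.12, Cars 1452394_at at 0.50 ± 0.11 and Eprs 1426713_s_at at 0.38 ± 0.08, each with overlapping groups.

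Chaperones and stress genes of the endoplasmic reticulum lay mostly above the controls, with 1 call at the probe sets counted. Of 31 genes, 29 had a difference above 0, with 16 higher at an unadjusted p under 0.05. The median was 0.24, 0.14 in replicates 1 to 3 and 0.31 in replicates 4 to 6. Dnajb9, a co-chaperone of the reticulum's Hsp70 protein, rose by 0.84 ± 0.15 (adjusted p = 0.0147), with NTG ratios of 0.819 to 1.15 and AC5 ratios of 1.35 to 2.82 that did not overlap. Its call was lost without AC5 replicate 2 (adjusted p = 0.0505) and with the replicate number as a block (limma, adjusted p = 0.0591). Outside the count, and named after their values were seen, the chaperone Hyou1 rose by 0.51 ± 0.10 (adjusted p = 0.019) at 1423291_s_at and Selenos, a selenoprotein of protein disposal, by 0.53 ± 0.10 (adjusted p = 0.017) at 1435735_x_at. Manf, a secreted factor of the same response, had AC5 ratios of 1.15 to 4.32 against NTG ratios of 0.932 to 1.12 and did not pass (0.91 ± 0.23, adjusted p = 0.0818). Hspa5, the Hsp70 protein itself, differed by 0.33 ± 0.11 (adjusted p = 0.173). The list mean was 0.73 in AC5 replicate 5 and 0.09 to 0.35 in the other 5 AC5 hearts.

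**Figure D2:**
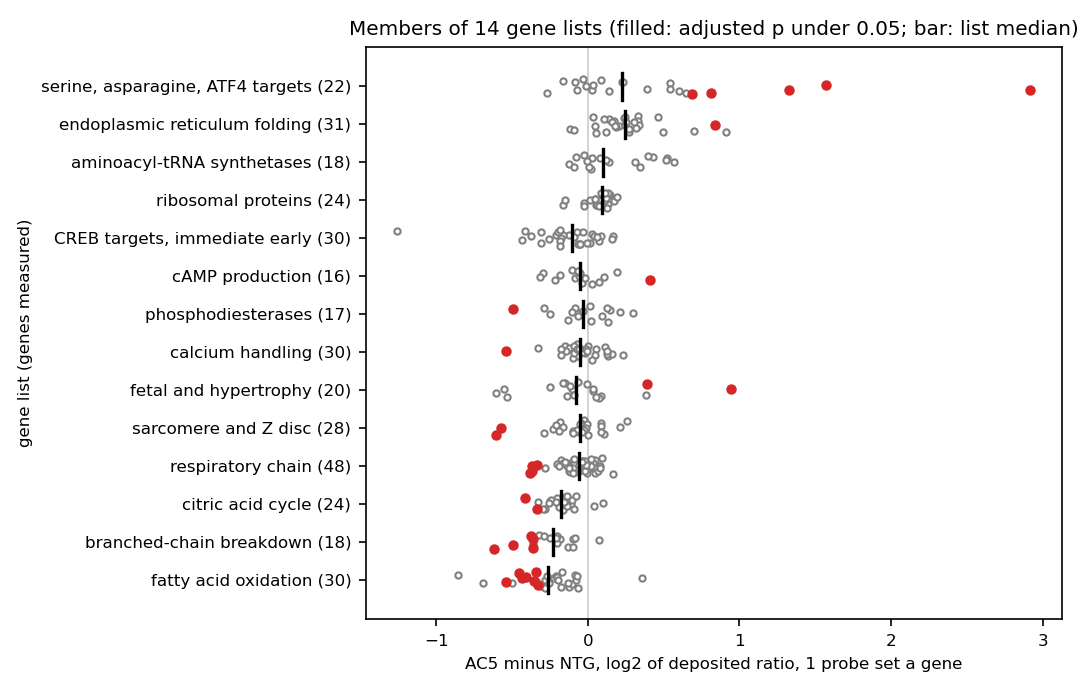
Difference between AC5 and NTG hearts (x axis, log2) for each gene of 14 lists, read at 1 probe set a gene; filled points passed at an adjusted p under 0.05 and the bar is the list median. The serine, asparagine and ATF4 list reaches 2.92 (Asns), while the lists for branched-chain amino acid breakdown and fatty acid oxidation lie to the left of 0 with medians of -0.23 and -0.26.

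Further large rises fell outside these lists. Plcd1, a phospholipase C that splits membrane phosphoinositides, had ratios of 0.941 to 1.09 in NTG and 2.42 to 10.2, median 3.76, in AC5 hearts at 1448432_at. It rose by 2.06 ± 0.23 (adjusted p = 0.000364), or by 1.35 after quantile normalization, while its other probe set differed by -0.15 ± 0.07 and did not pass. The 2 Plcd1 probe sets therefore disagreed. Pcdh17, a cell adhesion protein of the protocadherin family, rose at both probe sets, by 1.98 ± 0.19 and 1.58 ± 0.14. Its ratio at 1453070_at was 0.728 to 1.30 in NTG and 2.55 to 5.44 in AC5 hearts, without overlap.

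Myh7, the slow myosin heavy chain that is raised in the fetal and the overloaded heart, had ratios of 0.915 to 1.47 in NTG and 1.43 to 2.79, median 2.15, in AC5 hearts. The groups overlapped slightly through the highest control, replicate 4. Myh7 rose by 0.94 ± 0.15 (adjusted p = 0.00878), and its call was lost after quantile normalization (0.66, adjusted p = 0.082). Of the 20 measured fetal and hypertrophy genes, Myh7 and Uchl1 rose and none fell. Among those that did not pass, the natriuretic peptide gene Nppb had AC5 ratios of 1.08 to 2.14 above all NTG ratios of 0.950 to 1.02 (0.38 ± 0.13, adjusted p = 0.18). Its atrial relative Nppa differed by -0.60 ± 0.18 (adjusted p = 0.148) and skeletal actin Acta1 by -0.14 ± 0.20 (adjusted p = 0.835), both with overlapping groups. Uchl1, a ubiquitin hydrolase, rose by 0.39 ± 0.08 (adjusted p = 0.023) without overlap, and lost its call without NTG replicate 2, 3, 5 or 6 or AC5 replicate 2 or 3. It is also on the nerve marker list, where it was the only call among 10 genes.

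Further genes named by the rule rose less. Cyp2b10, a cytochrome P450, rose by 0.95 ± 0.20 (adjusted p = 0.0379), with its highest AC5 ratio of 4.75 in replicate 5 and a median of 1.80. Zbtb16, a zinc finger transcription factor that responds to glucocorticoids, rose by 0.93 ± 0.19 (adjusted p = 0.0321) at 1 of its 3 probe sets. Its difference was 0.53 within replicates 1 to 3 (adjusted p = 0.0628) and 1.33 within replicates 4 to 6 (adjusted p = 0.732), and neither passed alone. Fam107a rose by 0.85 ± 0.18 (adjusted p = 0.0324) at 1 of its 3 probe sets. The call of Cyp2b10 was lost without any 1 NTG heart and without AC5 replicate 2 or 6. That of Zbtb16 was lost without NTG replicate 1, 2, 3 or 6 or AC5 replicate 2, and that of Fam107a without NTG replicate 1 or 3 or AC5 replicate 2, 5 or 6. Cdkn1a, a cell cycle inhibitor, rose by 0.73 ± 0.16 (adjusted p = 0.0449). Gclm, a subunit of the enzyme that starts glutathione synthesis, rose by 0.42 ± 0.09 (adjusted p = 0.0391). Cdkn1a and Gclm each had another probe set, which did not pass. The call of Cdkn1a was kept only without AC5 replicate 4 or 5, and that of Gclm, whose groups overlapped, only without NTG replicate 1 or AC5 replicate 4.

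The falls were modest in size. Of 18 genes of branched-chain amino acid breakdown, 5 fell, namely Bckdha, Ivd, Acadsb, Pccb and Mmut, and 17 had a difference below 0. After quantile normalization 2 fell, and 2 with all 24 arrays or with the replicate number as a block. The median was -0.23, -0.34 in replicates 1 to 3 and -0.13 in replicates 4 to 6. Over all genes read at 1 probe set, 0.616% fell.

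Bckdha, a subunit of the dehydrogenase that commits branched-chain keto acids to breakdown, had ratios of 0.915 to 1.17, median 1.11, in NTG and 0.573 to 0.812, median 0.709, in AC5 hearts. The groups did not overlap, and the fall was -0.62 ± 0.09 (adjusted p = 0.00318), to 65.2% of the control level. Ivd, which oxidises the product of leucine, fell by 0.58 ± 0.08 at 1449001_at (adjusted p = 0.00339), with AC5 ratios of 0.562 to 0.816 below all NTG ratios. Acat1, which completes isoleucine and ketone body breakdown and is not among the 18, fell at all 3 probe sets, by 0.40 to 0.56. Acadsb, Pccb and Mmut, which carry isoleucine and valine fragments on to the citric acid cycle, fell by 0.36, 0.37 and 0.36. The other Mmut probe sets did not pass. Acad8, an enzyme of valine breakdown, differed by -0.20 at the probe set counted and fell by 0.49 ± 0.07 at 1419262_at. Bcat2, the first enzyme of the route, differed by -0.36 ± 0.15 with overlapping groups and did not pass (adjusted p = 0.307). Leaving out single hearts gave 2 to 6 falls on the list, with 2 without NTG replicate 1 or 6 or without AC5 replicate 2, 3 or 6, and 3 without NTG replicate 2, 3 or 5 or AC5 replicate 5.

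Fatty acid oxidation gave 7 falls among 30 genes, and 29 of the 30 had a difference below 0, with a median of -0.26. Acads, the short-chain acyl-CoA dehydrogenase, fell by 0.54 ± 0.11 (adjusted p = 0.0289), with NTG ratios of 0.867 to 1.27 and AC5 ratios of 0.580 to 0.833. Its call was lost without NTG replicate 1, 2 or 6 or AC5 replicate 1, 2 or 3. Acadvl, its very-long-chain relative, fell by 0.33 ± 0.07, Hadh by 0.43 ± 0.08, Decr1 by 0.41 ± 0.08 and Acot1 by 0.45 ± 0.10. Etfdh, which hands electrons from these dehydrogenases to the respiratory chain, fell by 0.34 ± 0.06, and its other probe set did not pass. Hadhb, a subunit of the trifunctional protein, fell by 0.35 ± 0.06 at 1426522_at, but another of its probe sets, 1442732_at, rose by 0.66 ± 0.11, so its probe sets disagreed.

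Several uptake and regulatory genes of the same list did not pass at the probe set read. Lpl differed by -0.09 and Cpt1a by -0.18. The fatty acid transporter Cd36 differed by -0.12 at the probe set that stood for it, and at another of its 3, 1450884_at, it fell by 0.35 ± 0.08 (adjusted p = 0.0483) with overlapping groups. Plin5, which coats lipid droplets, likewise fell only outside the count, by 0.32 ± 0.07 at 1441915_s_at. Pdk4, which restrains glucose oxidation, had AC5 ratios of 0.356 to 1.14 against NTG ratios of 0.762 to 1.04 (-0.69 ± 0.19, adjusted p = 0.0969). The count of falls on the list was 2 after quantile normalization, and 1 with all 24 arrays or with the replicate number as a block. It was 1 without AC5 replicate 2, 3 without AC5 replicate 3 or NTG replicate 1, 2 or 6, 4 without NTG replicate 3, and 10 without AC5 replicate 4.

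**Figure D3:**
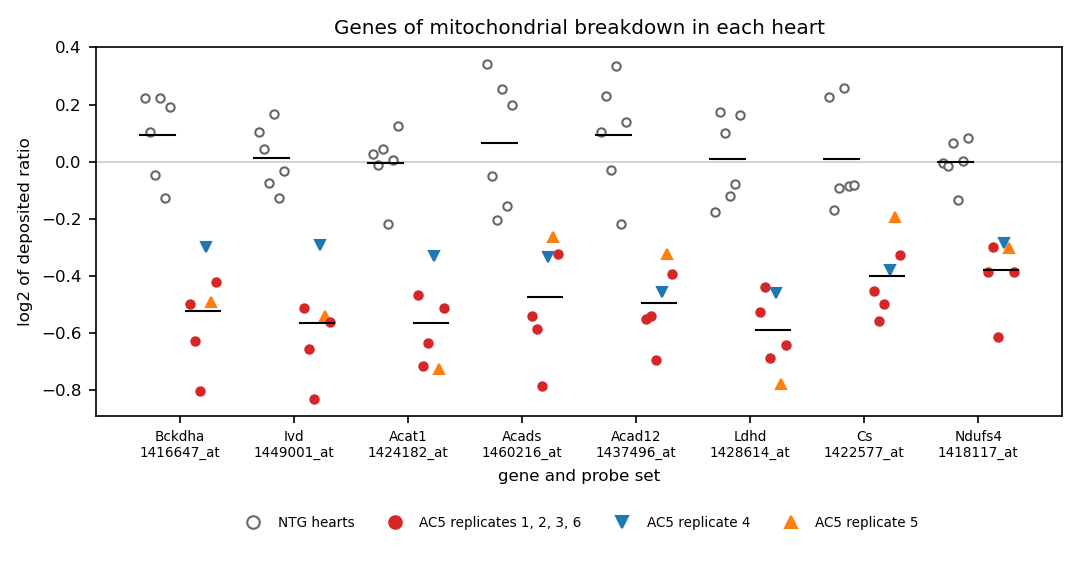
Log2 of the deposited ratio (y axis) in each NTG heart (open circles) and each AC5 heart (filled) at 8 genes of mitochondrial breakdown and energy supply; bars are group means of 6 hearts. All 6 AC5 hearts lie below all 6 NTG hearts at each of the 8, from Bckdha at -0.62 to Ndufs4 at -0.38.

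Further along the same route, 2 of 24 genes of the citric acid cycle and pyruvate dehydrogenase fell, 22 lay below 0, and the median was -0.18. Cs, citrate synthase, fell by 0.41 ± 0.09 (adjusted p = 0.0379) at 1422577_at and Pdha1 by 0.34 ± 0.07 (adjusted p = 0.046). The other Cs probe sets did not pass. At probe sets outside the count, Sucla2 fell by 0.53 ± 0.09, Idh2 by 0.37 ± 0.07 and Sdha by 0.36 ± 0.07, while Sucla2 and Idh2 differed by 0.10 and 0.04 at the probe set counted. The falls of Cs and Pdha1 at the probe sets counted were lost after quantile normalization, with all 24 arrays and with the replicate number as a block. The list held none without NTG replicate 1, 3, 5 or 6 or AC5 replicate 1, 2, 3 or 6, 1 without NTG replicate 2 or AC5 replicate 5, and 4 without AC5 replicate 4. In the fit of all 12 hearts by limma, 13 of the 24 were lower at an unadjusted p under 0.05. Of 48 respiratory chain genes 4 fell, with a median of -0.06. All 4 were complex I subunits, namely Ndufa10, Ndufb8, Ndufs1 and Ndufs4, and they fell by 0.34 to 0.38. The other probe sets of Ndufa10, Ndufb8 and Ndufs4 did not pass. The count was 1 after quantile normalization, 1 with all 24 arrays, and 0 with the replicate number as a block. It was 2 without NTG replicate 1, 2, 3, 5 or 6 or AC5 replicate 2, 3 or 5. Sirt3, the main deacetylase of mitochondrial enzymes, fell by 0.32 ± 0.07 (adjusted p = 0.0397), and kept its call only without NTG replicate 4 or AC5 replicate 1 or 5. Outside the lists, Ldhd, the mitochondrial D-lactate dehydrogenase, fell by 0.60 ± 0.08 (adjusted p = 0.00296) and Acad12, an acyl-CoA dehydrogenase family member, by 0.59 ± 0.09 (adjusted p = 0.00543), both without overlap.

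The cyclic AMP pathway itself changed at few transcripts. Of the 16 measured genes of cyclic AMP production, Adcy5 was the only one called. Gnas, the stimulatory G protein, differed by 0.19 ± 0.10. Among 17 phosphodiesterases, which break cyclic nucleotides down, Pde1c fell by 0.49 ± 0.10 (adjusted p = 0.027) with overlapping groups, at 1 of its 6 probe sets, and lost its call without NTG replicate 2 or 3 or AC5 replicate 3 or 6. Pde4d differed by 0.21 ± 0.07 (adjusted p = 0.196) and Pde3a by 0.13 ± 0.08 (adjusted p = 0.552). The 23 genes of protein kinase A and its anchors, the 19 receptor kinases, arrestins and RGS proteins and the 30 CREB targets and immediate early genes gave 0 calls by limma. At an unadjusted p under 0.05 the first list held 1 higher and 3 lower, the second 2 higher, and the CREB target list 7 lower and 0 higher. On the CREB target list 22 of the 30 lay below 0, with a median of -0.10. Btg2, an antiproliferative gene of that list, differed by -0.41 at the probe set counted and fell by 0.47 ± 0.09 (adjusted p = 0.0207) at 1448272_at. Fos, an immediate early gene, had ratios of 0.169 to 0.525 in AC5 and 0.318 to 2.47 in NTG hearts, which overlapped (-1.25 ± 0.37, adjusted p = 0.138).

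The same promoters were searched, on both strands, for cyclic AMP response elements as well. The full element TGACGTCA was held by 1 of the 45 risen genes with a promoter (2.22%) and 5 of the 134 fallen ones (3.73%), against 2.92% of all. Its core TGACG, which every full element contains, was held by 42.2% of risen, 34.3% of fallen and 30.0% of all. The E box CACGTG was held by 15.6%, 8.21% and 10.2%. The endoplasmic reticulum stress element and the glucocorticoid response element, searched by their consensus on both strands, were held by 0.138% and 0.0138% of all promoters and by none of the risen or fallen genes. No test was applied to these shares.

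Contractile and calcium genes gave few calls. Nexn, which binds actin at the Z disc, fell by 0.60 ± 0.10 (adjusted p = 0.0122), with NTG ratios of 0.830 to 1.09 and AC5 ratios of 0.497 to 0.780. Tmod4, a tropomodulin that caps actin filaments, fell by 0.57 ± 0.11 (adjusted p = 0.0209) without overlap, and lost its call without NTG replicate 2 or AC5 replicate 2 or 3. These were the only calls among 28 sarcomere and Z disc genes at the probe sets counted. Myom2, an M band protein, differed by 0.09 there and fell by 0.68 ± 0.15 (adjusted p = 0.0397) at 1450917_at, 1 of its 4 probe sets. Cacna2d1, a calcium channel subunit, fell by 0.54 ± 0.11 (adjusted p = 0.0269) and was the only call among 30 calcium handling genes, with overlapping groups. Its other probe sets did not pass, and its call was lost without NTG replicate 1, 3, 5 or 6 or AC5 replicate 2, 3 or 6.

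Of 37 genes of the extracellular matrix and its TGF-beta response, 1 fell at the probe set counted, and Col5a2 fell by 0.47 ± 0.09 at another of its own. Col3a1, a fibrillar collagen, had ratios of 0.673 to 1.03 in NTG and 0.301 to 0.687 in AC5 hearts and fell by 0.71 ± 0.16 (adjusted p = 0.048). Its groups overlapped slightly and its call was lost after leaving out any 1 heart other than AC5 replicate 3. The other Col3a1 probe set did not pass. Dpt, a matrix protein, fell by 0.35 ± 0.08 (adjusted p = 0.0466) and was the only call among 12 fibroblast markers, of which 10 lay below 0. Its call was kept only without NTG replicate 4 or AC5 replicate 4. The mean of the fibroblast markers was -0.32 to -0.18 in AC5 and -0.15 to 0.02 in NTG hearts. Their part in the lower matrix transcripts was not tested. Cldn5, a tight junction protein of endothelium, fell by 0.47 ± 0.08 (adjusted p = 0.016) and was the only call among 14 endothelial markers at the probe sets counted, with Egfl7 falling by 0.49 ± 0.10 at another of its own. The markers' mean was -0.29 to 0.03 in AC5 and -0.18 to 0.13 in NTG hearts. None of the 18 macrophage markers passed by limma, 0 were at an unadjusted p under 0.05, and their mean was -0.17 to 0.16 in AC5 and -0.05 to 0.05 in NTG hearts.

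The rule also named 5 further falls by their size. Hnrnpa2b1, an RNA-binding protein, fell by 0.98 ± 0.16 (adjusted p = 0.00828) at 1 probe set and at 2 of 4 in all, from NTG ratios of 0.654 to 1.15 to AC5 ratios of 0.352 to 0.644. A relative, Hnrnpdl, fell by 0.69 ± 0.09 (adjusted p = 0.00121) at 1 probe set and at 4 of 7 in all. Ints5, a subunit of the Integrator complex, fell by 0.80 ± 0.13 (adjusted p = 0.0079) at 1 of 3 probe sets. Xpo6, a nuclear exporter of actin, fell by 0.55 ± 0.10 (adjusted p = 0.0125) and Kctd12b by 0.63 ± 0.09 (adjusted p = 0.00296). Another Kctd12b probe set did not pass. The rule took falls by size only where the groups did not overlap, so their separation at all 5 follows from the choice.

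The AC5 hearts differed among themselves in how far they had moved. Replicate 4 was the lowest of the 6 at 42 of the 99 rises and the highest at 82 of the 200 falls, so it lay nearest the controls. Replicate 5 was the highest at 44 of the 99 rises, and replicate 3 the lowest at 70 of the 200 falls. The mean of the serine, asparagine and ATF4 list was 0.13 in replicate 4, 0.87 in replicate 5 and 0.39 to 0.49 in the other 4. The mean of the branched-chain list was -0.08 in replicate 4 and -0.35 to -0.23 in the other 5. The controls were uneven as well. NTG replicate 4 was the lowest of the 6 NTG hearts at 83 of the 200 falls, and without it 400 probe sets were called, 292 of them down.

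AC5 replicate 4 also stood apart in genes induced by interferon, the antiviral cytokine. The mean of the 22 measured genes was 0.57 in that heart, -0.13 to -0.08 in the other 5 AC5 hearts and -0.10 to 0.00 in NTG hearts. Ifit1 had a ratio of 8.998 in replicate 4 and at most 1.22 in the other 11 hearts. Ifit3 reached 4.67 and Usp18 4.63, against at most 1.06 and 1.31, and Irf7 reached 2.74 against at most 1.07. At 12 of the 22 genes replicate 4 was above every other heart. No interferon gene was called between the groups by limma, while 1 was higher and 5 lower at an unadjusted p under 0.05. Without replicate 4, the serine, asparagine and ATF4 list had 8 rises, the fatty acid list 10 falls and the branched-chain list 6 falls. That heart lay nearest the controls at the called probe sets, and any link of these counts to its interferon genes was not tested.

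**Figure D4:**
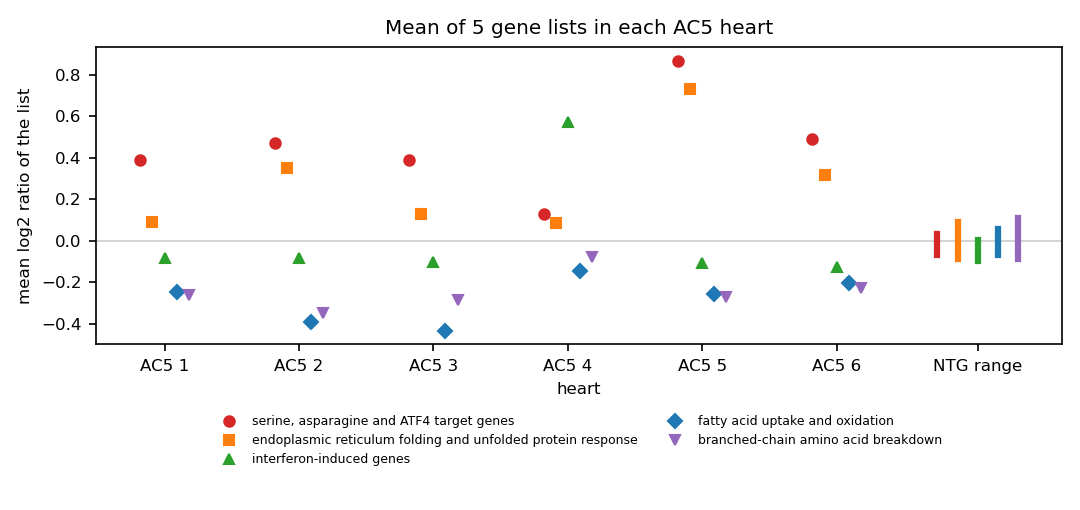
Mean log2 ratio of 5 gene lists (y axis) in each AC5 heart (points) and the range over the 6 NTG hearts (bars at right). Replicate 4 has the lowest ATF4 mean (0.13) and the highest interferon mean (0.57), and replicate 5 has the highest ATF4 (0.87) and endoplasmic reticulum (0.73) means.

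The changes of AC5 hearts were set beside those of the receptor lines in a fit of all 24 arrays. Comparisons with NTG share the control hearts, so whether AC5 differs from a line was tested directly. In that fit 64 probe sets (0.142%) were called in AC5 against NTG, 312 (0.693%, with 0.437% higher and 0.255% lower) in AC5 against GLY, and 2220 (4.93%, with 2.41% higher and 2.52% lower) in AC5 against ARG. Against NTG, 5.08% were called in GLY (1.55% higher, 3.53% lower) and 9.67% in ARG (4.04% higher, 5.63% lower). Of the 39 called probe sets named above by the rule, AC5 differed from GLY at 15 and from ARG at 17. Against NTG, 17 of the 39 were called in GLY and 26 in ARG. The 39 were chosen by their calls in AC5 against NTG, and the direct tests reuse the same AC5 hearts. The counts of 15 and 17 may be raised by that choice and cannot be set beside the shares over all probe sets.

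Asns was higher in AC5 than in either line. It stood 0.95 above NTG in GLY (adjusted p = 0.101) and rose by 2.06 in ARG, and the AC5 value exceeded GLY by 2.74 ± 0.34 (adjusted p = 5.09e-05) and ARG by 1.63 ± 0.34 (adjusted p = 0.0031). Mthfd2 exceeded GLY by 2.57 and ARG by 1.38 (adjusted p = 0.0135), and Phgdh exceeded them by 1.90 and 1.48. Slc7a5 rose by 0.99 in ARG and its AC5 value did not differ from it past the threshold (0.34 ± 0.23, adjusted p = 0.583). The same held for Aldh18a1 (0.27 ± 0.18, adjusted p = 0.558) and for Chac1, which rose by 1.34 in ARG (-0.53 ± 0.21, adjusted p = 0.179).

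Plcd1 and Pcdh17 stood apart from both lines. Plcd1 differed from NTG by -0.14 in GLY and -0.17 in ARG, and AC5 exceeded the lines by 2.20 ± 0.20 and 2.23 ± 0.20. Pcdh17 differed by -0.34 and -0.14, and AC5 exceeded the lines by 2.32 ± 0.20 and 2.12 ± 0.20. Ints5 in AC5 differed from GLY by -1.19 ± 0.19 (adjusted p = 0.0013) and from ARG by -1.06 ± 0.19 (adjusted p = 0.000692). Myh7 differed from NTG by -0.61 in GLY (limma, adjusted p = 0.062) and by 0.42 in ARG (adjusted p = 0.208), and neither passed. It was higher in AC5 than in GLY by 1.55 ± 0.19 (adjusted p = 5.35e-05), and its difference from ARG did not pass (0.52 ± 0.19, adjusted p = 0.135). Uchl1 rose by 2.25 in ARG, and AC5 differed from ARG by -1.85 ± 0.29 (adjusted p = 0.000174).

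The falls in fuel breakdown were smaller in AC5 than in ARG hearts. On the branched-chain list the median against NTG was -0.23 in AC5, -0.50 in GLY and -0.59 in ARG, and AC5 was called higher than ARG at 9 of 18 genes and than GLY at none by limma, where 10 were at an unadjusted p under 0.05. On the fatty acid list the medians were -0.26, -0.35 and -0.56, and AC5 was called higher than ARG at 13 of 30 genes and lower at 2, and lower than GLY at 1. Ivd fell by 1.70 in ARG and 1.27 in GLY, and the AC5 value lay 1.12 ± 0.12 above ARG (adjusted p = 1.88e-06) and 0.69 ± 0.12 above GLY (adjusted p = 0.00464). Tmod4 fell by 1.89 in ARG, and AC5 lay 1.32 ± 0.23 above it (adjusted p = 0.000685). Col3a1 went the other way. It rose by 1.06 in ARG hearts (adjusted p = 0.0108), and AC5 differed from ARG by -1.76 ± 0.27 (adjusted p = 0.000156).

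**Figure D5:**
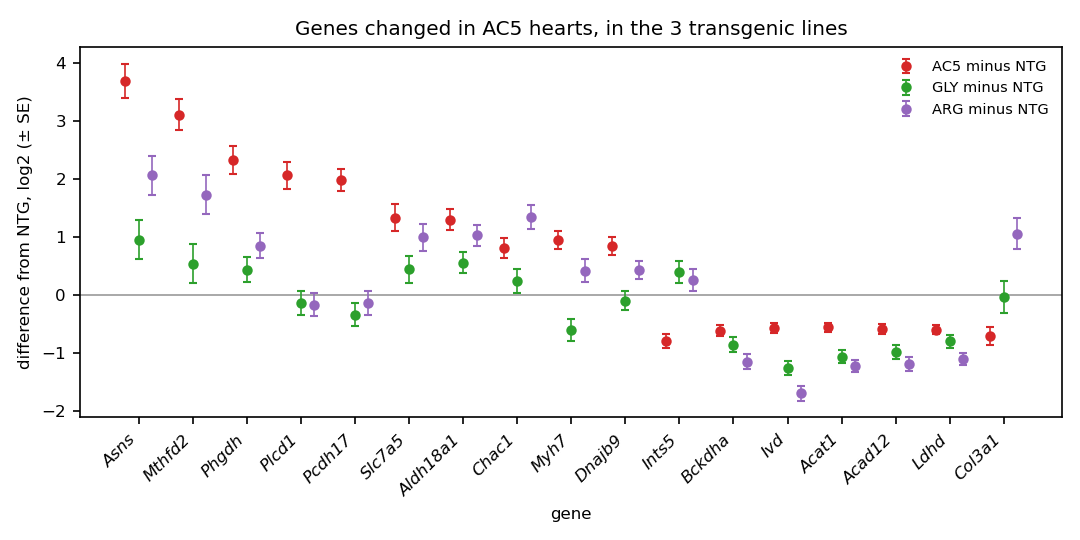
Difference from NTG hearts (y axis, log2 ± SE) at 17 genes in AC5, GLY and ARG hearts; the 3 differences share the 6 NTG hearts, and the AC5 values come from the fit of AC5 and NTG alone. Asns, Mthfd2, Phgdh, Plcd1 and Pcdh17 stand highest in AC5, while Bckdha, Ivd, Acat1, Acad12 and Ldhd lie lower in ARG than in AC5.

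The calls differed in how well they held. Of the 39 called probe sets named by the rule, 23 kept their call when any 1 heart was left out, and 11 were called under each alternative that kept at least 5 hearts in a group. These 11 lie in Asns (2 probe sets), Mthfd2, Phgdh, Pcdh17, Aldh18a1, Bckdha, Ivd, Acat1, Acad12 and Ldhd. After quantile normalization 25 of the 39 were still called, and those lost were Myh7, Chac1, Fam107a, Gclm, Uchl1, Sirt3, Dpt, Ndufs4, Cs, Pde1c, Acads, Cacna2d1, Xpo6 and Col3a1. In the fit of all 24 arrays 16 of the 39 were called. None of the 39 changed direction under any alternative.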

How the data were processed

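Total RNA of each heart was extracted with Trizol, checked on a Bioanalyzer, and 5 micrograms were labelled and hybridised, per the labels' protocols. The submitters' processing notes name RMA, without a version. The authors deposited linear ratios near 1 in NTG hearts, with no log taken. The division by a control level was read from the values and is not stated by the authors. The NTG means of replicates 1 to 3 and of 4 to 6 correlate across probe sets (r = 0.217), where centring over all 6 would make them opposite. The 2 sets may therefore have been divided by separate control levels, in which case a ratio is relative to its own set's controls, so both sets were also analysed alone. Columns that matched no sample numbered 0.

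Log2 values had been planned for, so log2 of the ratio was taken and fitted with limma 3.58.1 (R 4.3.3), 1 mean per genotype, on the 12 AC5 and NTG arrays. Of 45101 probe sets, 64 Affymetrix controls were left out. P-values were adjusted by Benjamini-Hochberg over 45037 probe sets. The median SE was 0.0819, and the 6 arrays a group limit the precision. A single symbol was annotated for 34945 probe sets (18193 genes, 18032 updated through Entrez identifiers), several for 932 and none for 9160. Of 869 list members in 39 lists, 793 were matched, each read at 1 probe set chosen by suffix and number.

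The GLY and ARG contrasts come from a fit of all 24 arrays. The members, lists and tests were chosen with earlier results of these data known. Genes were named by rule. It took the 12 largest rises and 12 largest falls that were called without overlap, the largest called rise and fall of each list, and Adcy5, Adcy6 and Myh6. At the genes taken by size, lack of overlap is therefore part of the choice and not a result. The fit was tested on simulated data. Alternatives were quantile normalization, median centring, all 24 arrays, the replicate number as a block, the replicate sets, array weights, robust variance, linear values, 1 probe set per gene and each array left out. Python 3.11.15 with pandas 2.3.3, numpy 2.4.6 and matplotlib 3.10.9 made tables and plots.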

Additional observations from a re-analysis of the deposited data

Results flagged for a closer look

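In 168 groups of 6 hearts (90 at named probe sets, 78 for list means), 13 had 1 heart whose gap to its nearest neighbour was large for the range of the group, where chance gives about 1 group in 20. AC5 replicate 4 was far below the other AC5 hearts, in log2 ratio, at Asns 1433966_x_at (1.95), Asns 1451095_at (1.43) and Phgdh (0.94), and far above them in the mean of the interferon-induced genes (0.57). AC5 replicate 5 was far above the others at Cyp2b10 (2.25) and far below them at Ints5 (-1.51) and in the fibroblast markers (-0.317). AC5 replicate 3 was far below at Xpo6 (-1.03) and Ndufs4 (-0.62). Among controls, NTG replicate 6 was far below at Asns 1451095_at (-0.51), NTG replicate 3 at Plcd1 (-0.0884), and NTG replicate 1 was highest in the means of cyclic AMP production (0.0586) and aminoacyl-tRNA synthetases (0.0563). Col3a1 fell in AC5 and rose in ARG hearts, and the direct difference between these lines was -1.76.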

How the results depend on the processing

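Against 299 calls (99 up, 200 down), the count was 98 after quantile normalization (45 and 53), 64 with all 24 arrays (31 and 33), 103 in replicates 1 to 3 alone (35 and 68), 0 in replicates 4 to 6 alone, 189 on linear values (110 down) and 191 at 1 probe set per gene (47 up), where fewer probe sets were tested. Leaving out 1 heart gave 105 to 478 calls, 42 to 130 up and 63 to 348 down, with the lowest without AC5 replicate 2 and the highest without AC5 replicate 4. Falls numbered 128 without NTG replicate 5. Median centring, the set as a term, array weights and robust variance kept the count within 1.5 times. The cause of these shifts was not tested. Of 858 list medians under an alternative, 46 changed sign, in 16 lists. No called probe set named by the rule changed direction.

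The replicate numbers did not pair the hearts. Correlations of same-numbered deviations were -0.24 to 0.19, and no NTG heart correlated best with the AC5 heart of its own number. With the replicate block 74 probe sets were called (36 up, 38 down), and 21 of the 39 named probe sets kept their call.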

Other observations

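Some genes outside the lists are given for their values, chosen after these were seen. Abcc4, a pump that exports cyclic AMP among other substrates, rose by 0.45 ± 0.08 (limma, adjusted p = 0.0121), with AC5 ratios of 1.22 to 1.53 above all NTG ratios of 0.881 to 1.14. Its call was lost after quantile normalization (adjusted p = 0.0647). In the fit of all 24 arrays Abcc4 also rose in ARG, by 0.31 (limma, adjusted p = 0.0277). In GLY it stood 0.27 above NTG and did not pass (adjusted p = 0.0758). Its AC5 value did not differ past the threshold from ARG (adjusted p = 0.518) or GLY (adjusted p = 0.456). Ccnd2, a cyclin that promotes entry into the cell cycle, rose at 4 of 7 probe sets, by 0.40 to 0.51, and its 3 others differed by 0.31 to 0.43. After quantile normalization 1 of the 4 calls was left, at 1430127_a_at (adjusted p = 0.0228), which also held without any 1 heart. Ficd, an enzyme that modifies the main chaperone of the endoplasmic reticulum, rose by 0.45 ± 0.10 (adjusted p = 0.0449) with overlapping groups. Its call was lost after quantile normalization (adjusted p = 0.0887) and was kept only without NTG replicate 4 or AC5 replicate 4. The probe sets without a gene symbol that rose most were 1456986_at, by 2.11 ± 0.18 (adjusted p = 1.51e-05), and 1459557_at, by 1.86 ± 0.26 (adjusted p = 0.00316). Both were also higher in AC5 than in GLY, by 2.03 and 1.89, and than in ARG, by 2.09 and 2.13.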
